A study of Mus musculus with 9 samples.

Results

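The SLC25 family is the largest group of solute carriers of the inner mitochondrial membrane. Its members were taken as every gene whose symbol on the array is Slc25a followed by a number, which gave 44 of the 18193 genes measured. Family members that no probe set named alone were not analysed here. The tissue was myocardium of the right ventricle from C57BL6J mice, all male and 6 to 8 weeks of age, hybridised to one-colour Affymetrix arrays, with 5 arrays of mice after pulmonary banding and 4 arrays of sham-operated mice. Banding narrows the pulmonary artery, so that the right ventricle works against a raised pressure, and neither group carries an altered allele or a drug according to the labels. The sources used here do not give the time since surgery. The design text speaks of 5 mice, banded and sham, while 4 sham arrays were analysed here. Nor do the labels tell whether replicates are different animals, and the p-values therefore reflect the variation among these arrays.

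Mitochondrial carriers are small proteins, built as a repeated fold of membrane helices, that exchange metabolites, nucleotides and cofactors between the cytosol and the matrix. In heart muscle they pass ADP in and ATP out, bring in phosphate for ATP synthesis, move fatty acids as carnitine esters, and carry the reducing power of cytosolic NADH through the malate-aspartate shuttle. They are encoded in the nucleus, translated in the cytosol and inserted by the small chaperones and the translocase of the inner membrane. Some have several isoforms of the same substrate, with different tissue ranges.

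Values are log2 expression per probe set as the authors normalised them, so 1 unit is a doubling. Each gene is represented by its brightest probe set over all 9 arrays. The lowest value in the table is 2.198, and a group mean under 4.198 is called dim and taken as not measured. Myocardium was recognised by its markers, with the mean of 10 cardiomyocyte markers between 14.96 and 15.18 on banding arrays and between 15.27 and 15.31 on sham arrays. The mean of 8 fibroblast markers ran from 13.82 to 14.17 in banding and from 11.08 to 11.52 in sham, and that of 8 macrophage markers from 10.81 to 11.42 and from 9.65 to 9.94. Liver transcripts were present on the sham arrays, where the mean of 11 hepatocyte markers ran from 7.75 to 11.59 with sham replicate 4 highest, against 2.49 to 4.22 on the banding arrays. In whole tissue, fewer cells of a type and less RNA per cell cannot be told apart.

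Most carriers that changed were lower in the banded ventricle. Of the 44 members, 22 were lower, 4 were higher and 18 did not pass an adjusted p of 0.05 in limma, with adjustment over all 18193 genes. Lower genes were 20.0% and higher genes 18.4% of everything tested, against 50% and 9.09% of the members. Dim in both groups were 6 members (Slc25a2, Slc25a18, Slc25a31, Slc25a41, Slc25a48 and Slc25a54), which leaves 38 above the dim level in a group and 12 of them that did not pass. Among all 11013 genes above that level, 32.2% were lower and 29.8% higher, against 22 and 4 of the 38 members. The median difference was -0.22 log2 units over the 44 members and -0.47 over the 38, against 0 over all genes tested and -0.01 over the 11013. The 5 banding values lay below all 4 sham values in 21 members and above them in 4, where 19.3% and 17.4% of all genes did, or 36.7% in either direction. Of the 22 lower members, 12 were lower by at least 2-fold, and of the 4 higher members 1 was. The highest sham array was replicate 4 in 6 of the 22 lower members and in 1 of the 4 higher ones.

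**Figure D1:**
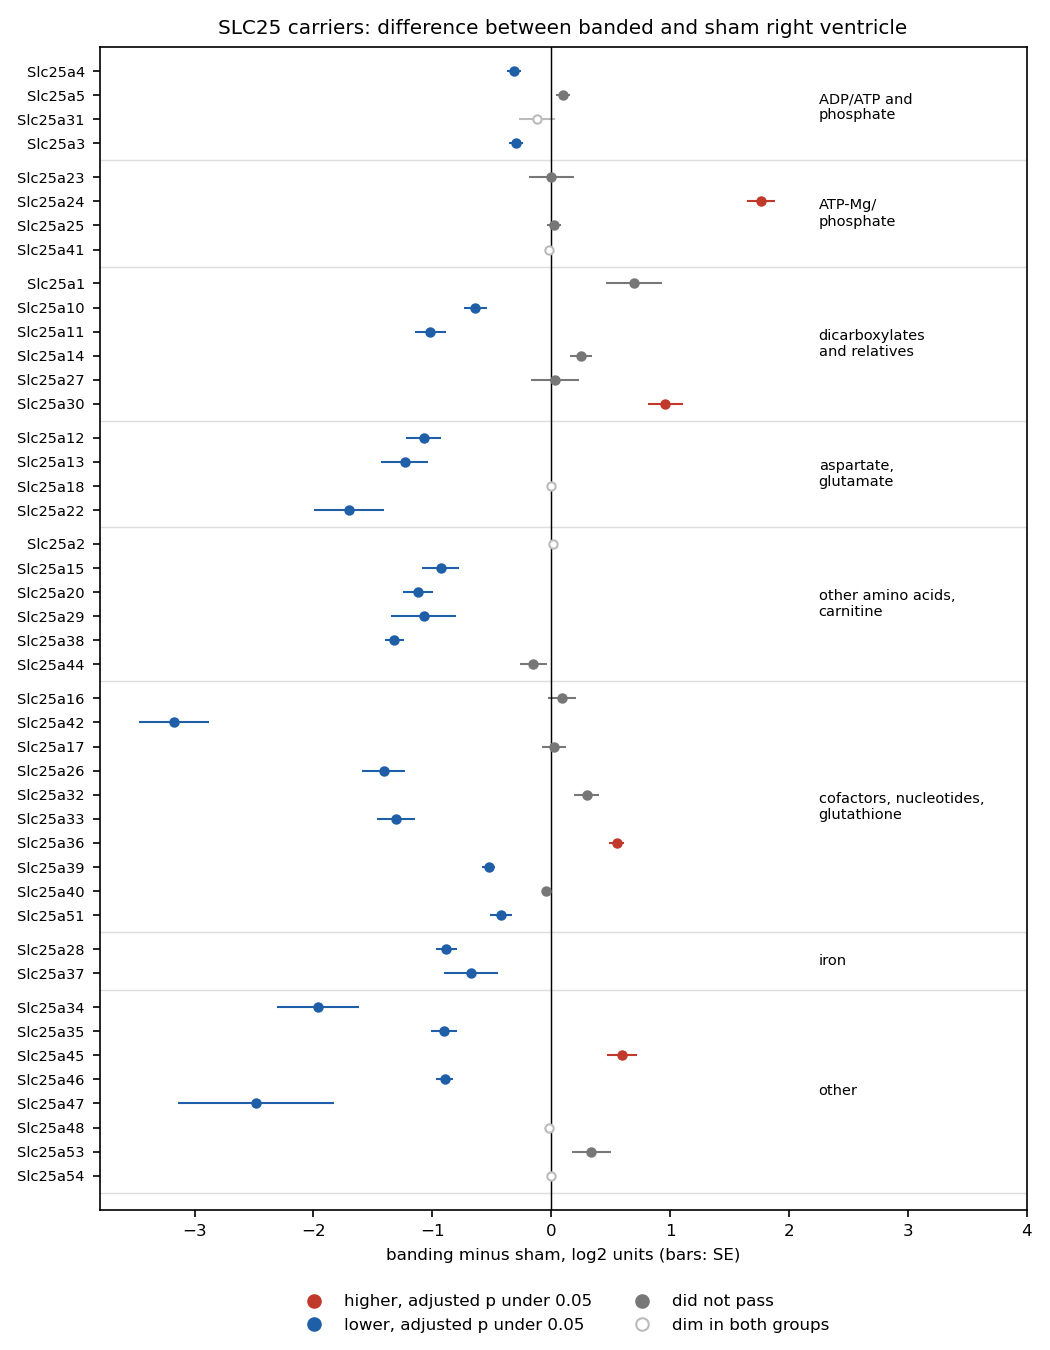
Difference between banding and sham for each of the 44 carriers, in log2 units with the standard error as a bar, grouped by substrate. Blue points (22) were lower and red points (4) higher at an adjusted p under 0.05, grey points did not pass, and open points were dim in both groups. The aspartate, glutamate, amino acid and carnitine carriers lie mostly left of 0, with Slc25a42 farthest left at -3.17 and Slc25a24 farthest right at 1.77.

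The largest fall was that of Slc25a42, which takes coenzyme A into mitochondria in exchange for adenosine nucleotides, and the largest rise that of Slc25a24, a calcium-regulated carrier of ATP-Mg and phosphate. The 250 bases before the transcription start of both genes are shown because these carriers stand at the ends of the range. Those of Slc25a3 and Slc25a34 are shown because they hold letters known from promoters of mitochondrial genes. All are from RefSeq on GRCm38.p6, and lie at chr8:70212282-70212531, minus strand, chr3:109122899-109123148, plus strand, chr10:91123968-91124217, minus strand and chr4:141623835-141624084, minus strand, in that order. Capitals mark any match to 1 of the 5 motifs named next.
Slc25a42: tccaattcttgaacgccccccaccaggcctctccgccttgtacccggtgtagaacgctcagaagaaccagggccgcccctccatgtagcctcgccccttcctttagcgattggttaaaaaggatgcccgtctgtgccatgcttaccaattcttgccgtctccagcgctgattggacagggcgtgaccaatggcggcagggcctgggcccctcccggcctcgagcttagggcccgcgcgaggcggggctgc
Slc25a24: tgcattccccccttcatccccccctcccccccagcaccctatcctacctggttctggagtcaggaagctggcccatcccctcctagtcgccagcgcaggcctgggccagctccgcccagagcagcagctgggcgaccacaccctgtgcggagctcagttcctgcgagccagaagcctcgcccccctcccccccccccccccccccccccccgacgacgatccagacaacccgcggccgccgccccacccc
Slc25a3: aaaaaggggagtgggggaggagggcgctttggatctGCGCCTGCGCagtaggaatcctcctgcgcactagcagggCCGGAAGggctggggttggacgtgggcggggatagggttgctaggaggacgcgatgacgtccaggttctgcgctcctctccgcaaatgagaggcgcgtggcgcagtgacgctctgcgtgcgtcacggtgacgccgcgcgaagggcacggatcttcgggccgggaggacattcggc
Slc25a34: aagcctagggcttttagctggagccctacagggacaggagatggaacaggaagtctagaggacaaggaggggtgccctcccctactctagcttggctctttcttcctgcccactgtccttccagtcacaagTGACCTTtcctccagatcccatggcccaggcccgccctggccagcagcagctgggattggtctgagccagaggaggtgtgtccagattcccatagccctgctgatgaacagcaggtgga
The 5 motifs were searched on both strands in windows of 300 bases, from 250 before to 50 after each start, and a gene with several starts counted once. RefSeq held a window for 34 of the 44 members and for 27025 genes in all. The ETS core CCGGAAG, which nuclear respiratory factor 2 binds, was found in 7 members (20.6%) and in 9.93% of all genes. The E-box CACGTG was found in 7 members (20.6%) and in 8.09% of all genes. The site of nuclear respiratory factor 1 (GCGC, any base, TGCGC) was in 2 members, Slc25a3 and Slc25a31, and in 5.19% of all genes. The estrogen-related receptor site AAGGTCA was in 1 member, Slc25a34, where it lies on the opposite strand from base -119, and in 5.38% of all genes. The MEF2 core CTAAAAATA was in 0 members and in 0.588% of all genes. By outcome, the ETS core was in 4 of 17 lower members with a window, 0 of 4 higher ones and 3 of 13 that did not pass. The E-box was in 3, 1 and 3 of them. The 5 motifs do not overlap one another in the printed stretches, and a match describes letters, not binding.

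The ADP/ATP exchangers and the phosphate carrier supply the ATP synthase. Slc25a4, the main exchanger of heart and skeletal muscle, read 16.04, 16.09, 16.05 and 16.04 in sham and 15.89, 15.70, 15.85, 15.63 and 15.63 in banding, here and below in the order of the replicate numbers. All banding arrays lay below all sham arrays, and the gene fell by 0.31 ± 0.06 log2 units (SE), or 1.24-fold (adjusted p = 0.0049). Such values are near the ceiling of the table (16.43), a range in which arrays can compress differences. Slc25a4 has 3 other probe sets, which were -2.08 ± 0.12, -0.37 ± 0.08 and -0.10 ± 0.05 apart, at sham means of 8.22, 15.76 and 12.48. The probe set at 8.22 thus showed a fall several times that at 16.05, and the probe set at 12.48 did not pass (adjusted p = 0.142 with each probe set tested singly). The size of the fall is therefore not settled by these probe sets. Slc25a5, the exchanger of proliferating and non-muscle cells, ran from 13.35 to 13.61 in sham and from 13.52 to 13.66 in banding, with overlap, and did not pass (0.097 ± 0.059, adjusted p = 0.276). It has 8 probe sets, which can also bind its near-identical processed copies in the genome. When tested singly, 2 of them were higher, at 0.76 ± 0.17 and 0.81 ± 0.20, and the other 6 did not pass, at -0.16 to 0.16. With the mean of all probe sets Slc25a5 was 0.22 higher (adjusted p = 0.00874), and without cross-hybridising probe sets it was -0.16 (adjusted p = 0.163, range over its alternatives 0.00874 to 0.558). Slc25a3, the phosphate carrier, read 14.50, 14.53, 14.60 and 14.55 in sham and 14.41, 14.26, 14.30, 14.15 and 14.12 in banding, again without overlap, a fall of 0.30 ± 0.06 (1.23-fold, adjusted p = 0.00608). A second, much dimmer probe set of Slc25a3 gave -0.38 ± 0.19 and did not pass when tested singly (adjusted p = 0.193). Slc25a31, an exchanger of the germ line, was dim in both groups.

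**Figure D2:**
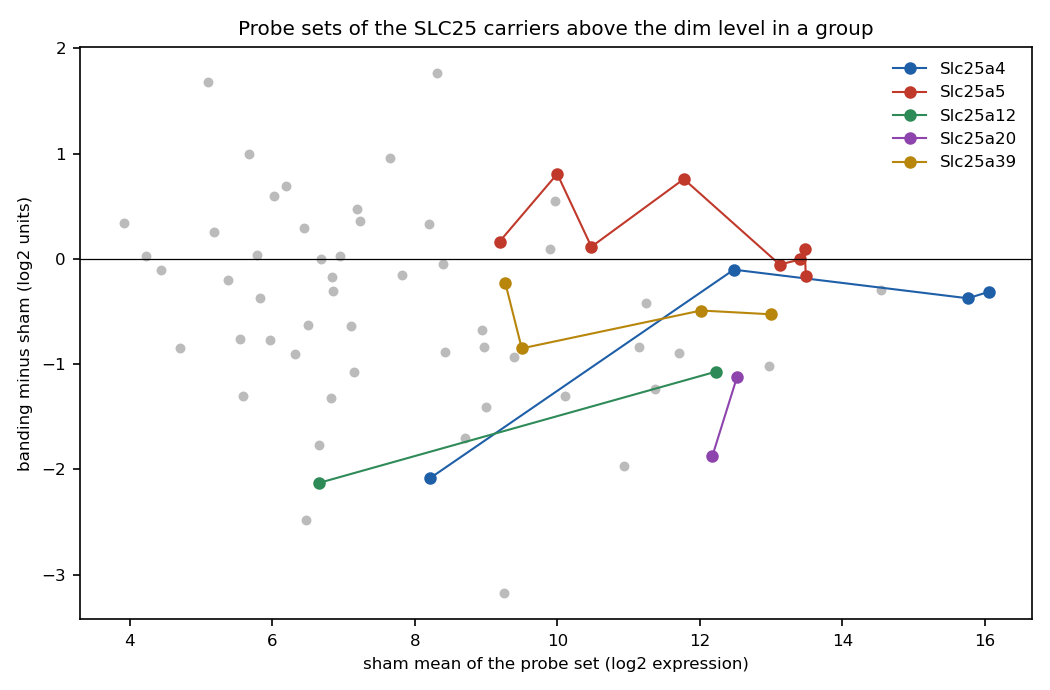
Banding minus sham (log2 units) of every member probe set that was above the dim level in a group, against the sham mean of that probe set (log2 expression). Coloured lines join the probe sets of 1 gene. The dimmest of the Slc25a4 probe sets lies at -2.08 and the brightest at -0.31, while the Slc25a5 probe sets run from -0.16 to 0.81.

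The proteins that stand beside the exchangers were listed as ADP/ATP handling, with 8 genes measured. Among them 6 fell, 1 rose and 1 did not pass, and their median difference was -0.38. Of all genes tested, 20.0% were lower and 18.4% higher. The outer membrane channels Vdac3, Vdac2 and Vdac1 fell 1.35-fold, 1.25-fold and 1.32-fold. The brain-type cytosolic creatine kinase Ckb rose 1.83-fold (0.87 ± 0.11, adjusted p = 0.000662). Mpc1, a subunit of the pyruvate carrier, which is not of the SLC25 family, fell 1.25-fold (adjusted p = 0.00657).

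The ATP-Mg/phosphate carriers load or empty the adenine nucleotide pool of the matrix and are switched by cytosolic calcium. Slc25a24 stood at 7.97, 8.44, 8.51 and 8.33 in sham and at 9.89, 10.26, 10.08, 10.08 and 10.08 in banding. Every banding array lay above every sham array by more than 1 log2 unit, and the gene rose 3.40-fold (1.77 ± 0.12, adjusted p = 5.48e-05). A second, dimmer probe set gave 1.68 ± 0.10. On the same arrays the fibroblast and macrophage marker means were higher in banding, and their part in the rise was not tested. Slc25a23 ran from 6.56 to 6.90 in sham and from 6.12 to 7.10 in banding, with a difference of 0.000426 ± 0.189. Slc25a25 read the identical value 4.19 on 5 of the 9 arrays and stayed between 4.17 and 4.37, close to the dim level, so a change could be missed. Slc25a41 was dim in both groups.

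The carriers of aspartate and glutamate fell together, apart from Slc25a18, which lay at the floor on every array. Slc25a12 (aralar), the aspartate/glutamate carrier of excitable tissues and a limb of the malate-aspartate shuttle, read 12.30, 12.33, 12.15 and 12.10 in sham and 11.54, 10.99, 11.35, 10.86 and 11.01 in banding, a fall of 1.07 ± 0.15 (2.10-fold, adjusted p = 0.000904). A dimmer probe set of Slc25a12 fell by 2.13 ± 0.29. Slc25a13 (citrin), the isoform best known from liver, read 11.25, 11.48, 11.54 and 11.23 in sham and 10.62, 10.17, 10.39, 9.73 and 9.82 in banding, a fall of 1.23 ± 0.20 (2.35-fold, adjusted p = 0.00175). The liver-rich sham replicate 4 gave the lowest sham value of Slc25a13, and without that array the fall was 1.28. The part of liver RNA in the Slc25a13 values was not tested. Slc25a22, which takes glutamate in with a proton, read 9.07, 8.15, 9.07 and 8.50 in sham and 7.38, 7.17, 7.39, 6.64 and 6.40 in banding. It fell by 1.70 ± 0.29 (3.25-fold, adjusted p = 0.00258), and no banding array reached the lowest sham array in any of these 3 carriers.

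Their partner enzymes were compared in a list of the malate-aspartate and glycerol phosphate shuttles, of which 5 of 6 fell and 0 rose, with a median of -0.50. Among all genes above the dim level, 32.2% were lower. Got2 and Got1, the mitochondrial and cytosolic aspartate aminotransferases, fell 1.58-fold and 1.64-fold. Gpd1 and Gpd2, the cytosolic and mitochondrial glycerol phosphate dehydrogenases, fell 1.73-fold and 1.27-fold. In a list of glutamate and ornithine enzymes, Glud1 (1.27-fold) and Oat (1.25-fold) fell, and Arg2 was dim in both groups.

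Slc25a11, which exchanges oxoglutarate for malate and is the other limb of the malate-aspartate shuttle, read 12.87, 13.00, 12.99 and 13.00 in sham and 12.35, 11.86, 12.04, 11.73 and 11.77 in banding. It fell by 1.02 ± 0.13 (2.02-fold, adjusted p = 0.00058). Slc25a10, the dicarboxylate carrier, read 7.04, 7.01, 7.04 and 7.34 in sham and 6.56, 6.42, 6.61, 6.24 and 6.51 in banding, a fall of 0.64 ± 0.10 (1.56-fold, adjusted p = 0.00139). The highest sham value again belonged to replicate 4, and without it the fall was 0.56. A second, dimmer probe set of Slc25a10 gave -0.20 ± 0.11 and did not pass when tested singly (adjusted p = 0.242). Slc25a1, the citrate carrier, which exports citrate for fatty acid synthesis, went the other way without passing (0.69 ± 0.24, adjusted p = 0.0531). Its sham values were 5.78, 6.09, 5.97 and 6.95 and its banding values 6.81, 7.21, 6.78, 6.87 and 6.78, so sham replicate 4 alone overlapped with banding. Without sham replicate 4 Slc25a1 was 0.94 higher and passed (adjusted p = 0.00143), and over its alternatives the adjusted p ran from 0.00143 to 0.143. Other uncoupling-protein relatives were Slc25a30, Slc25a14 and Slc25a27. Slc25a30 read 7.50, 7.63, 7.42 and 8.07 in sham and 8.61, 8.88, 8.53, 8.59 and 8.46 in banding, and rose 1.94-fold (0.96 ± 0.15, adjusted p = 0.00146). Its other probe sets above the dim level gave 0.48 ± 0.11 and 0.36 ± 0.13, of which the second did not pass. Slc25a14 (0.25 ± 0.10, adjusted p = 0.0789) and Slc25a27 (0.035 ± 0.201, adjusted p = 1) did not pass.

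Slc25a20 brings acylcarnitines into the matrix in exchange for carnitine, the step between the carnitine palmitoyltransferases. It read 12.61, 12.51, 12.44 and 12.53 in sham and 11.68, 11.37, 11.63, 11.19 and 11.13 in banding. Sham values spanned less than 0.2 log2 units and lay above every banding value, and the fall was 1.12 ± 0.13 (2.17-fold, adjusted p = 0.000362). A second probe set, of the kind that can cross-hybridise, fell by 1.87 ± 0.18. In the carnitine system around it, 3 of 4 genes were lower and 0 higher, with a median of -1.70. The lower share of all genes above the dim level was 32.2%. Cpt2, the inner palmitoyltransferase, fell 3.62-fold, Crat, the carnitine acetyltransferase, 3.21-fold, and Slc22a5, the plasma membrane carnitine transporter, 3.28-fold. Cpt1a, the outer palmitoyltransferase of liver and other tissues, did not pass (-0.06 ± 0.17).

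Among carriers of other amino acids, Slc25a38, which brings in glycine for haem synthesis, read 6.79, 6.94, 6.79 and 6.77 in sham and 5.65, 5.49, 5.41, 5.64 and 5.32 in banding, a fall of 1.32 ± 0.08 (2.50-fold, adjusted p = 3.3e-05). Slc25a29, a carrier of basic amino acids, read 6.92, 7.65, 6.86 and 7.18 in sham and 6.57, 5.64, 6.56, 5.66 and 5.97 in banding. It fell by 1.07 ± 0.27 (2.10-fold, adjusted p = 0.0163), and its 5 probe sets were all lower, by 0.62 to 1.30. Without sham replicate 4 and banding replicate 5 together it did not pass (adjusted p = 0.0855, range over its alternatives 0.0021 to 0.166). Slc25a15, the ornithine carrier of the urea cycle, read 9.48, 9.30, 8.98 and 9.79 in sham and 8.53, 8.33, 8.57, 8.33 and 8.53 in banding, a fall of 0.93 ± 0.16 (1.91-fold, adjusted p = 0.0022). Its sham order, with replicate 4 highest and replicate 3 lowest, is the order of the hepatocyte marker mean, and without replicate 4 the fall was 0.80. The part of liver RNA in the Slc25a15 values was not tested either. Slc25a44, the carrier of branched-chain amino acids, overlapped between groups and did not pass (-0.15 ± 0.12, adjusted p = 0.413). Slc25a2, a second ornithine carrier, was dim in both groups.

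The carriers of cofactors and nucleotides held both the largest fall and a rise. Slc25a42 read 9.17, 9.17, 9.59 and 9.09 in sham and 6.46, 6.26, 6.71, 5.41 and 5.57 in banding. The groups were more than 2 log2 units apart at their closest, and the gene fell 9.03-fold (-3.17 ± 0.30, adjusted p = 0.000165). Its second probe set was dim in both groups, and the mean of both probe sets gave a fall of 1.60. Slc25a16, also linked to coenzyme A, overlapped between groups (0.09 ± 0.11, adjusted p = 0.619). Slc25a26, which imports S-adenosylmethionine, read 8.89, 9.06, 9.05 and 8.96 in sham and 8.14, 7.52, 7.71, 7.22 and 7.33 in banding, and fell 2.65-fold (-1.41 ± 0.18, adjusted p = 0.000639). Slc25a51, the NAD carrier, read 11.14, 11.16, 11.33 and 11.34 in sham and 10.99, 10.85, 10.91, 10.78 and 10.57 in banding, a fall of 0.42 ± 0.09 (1.34-fold, adjusted p = 0.00797). Its other probe sets gave -0.83 ± 0.10 and -0.11 ± 0.07. The second of these lay close to the dim level and did not pass when tested singly (adjusted p = 0.366). Slc25a39, the glutathione importer, fell by 0.53 ± 0.06 (1.44-fold, adjusted p = 0.000269), from 12.95 to 13.04 in sham to 12.37 to 12.65 in banding. Other Slc25a39 probe sets above the dim level gave -0.85 ± 0.08, -0.49 ± 0.08 and -0.23 ± 0.10. The last did not pass when tested singly (adjusted p = 0.149). Slc25a40, the relative of Slc25a39, read the identical value 8.35 on 6 of 9 arrays. It spanned 8.33 to 8.49, so its probe set hardly varied (adjusted p = 0.295). Identical values on at least 3 arrays were found for 13.4% of the 10748 genes whose mean exceeded the dim limit.

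The pyrimidine nucleotide carriers moved in opposite directions. Slc25a33 read 10.05, 10.22, 10.05 and 10.08 in sham and 9.29, 8.67, 8.94, 8.53 and 8.55 in banding, a fall of 1.31 ± 0.16 (2.47-fold, adjusted p = 0.000533). Slc25a36 read 10.17, 9.92, 9.91 and 9.89 in sham and 10.44, 10.53, 10.49, 10.58 and 10.59 in banding, a rise of 0.55 ± 0.06 (1.47-fold, adjusted p = 0.000368). The rise of Slc25a36 rests on 1 of its 3 probe sets, since the others gave 0.34 ± 0.15 and -0.17 ± 0.08 and did not pass, and with the mean of its probe sets it was 0.24 (adjusted p = 0.0663, range over its alternatives 0.000165 to 0.0663). Slc25a32, the folate and flavin carrier, did not pass (0.30 ± 0.11, adjusted p = 0.062), but was higher without banding replicate 1 (0.36, adjusted p = 0.0172, range over its alternatives 0.0123 to 0.181). A second probe set of Slc25a32 was 0.99 ± 0.29 higher and passed when tested singly (adjusted p = 0.034), and the mean of all its probe sets also passed (0.46, adjusted p = 0.0139). Slc25a17, a peroxisomal member of the family, overlapped (0.02 ± 0.10). In a list of mitochondrial folate, serine and proline enzymes, 3 of 7 genes were higher and 2 lower. Such counts are close to the shares of all genes above the dim level, 29.8% higher and 32.2% lower. Mthfd2, a folate enzyme of growing cells, rose 4.23-fold, and Aldh18a1, the first enzyme of proline synthesis, 2.39-fold. Prodh, which breaks proline down, fell 3.58-fold, and Shmt2, the serine hydroxymethyltransferase, 1.21-fold.

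The mitoferrins carry iron into the matrix for haem and iron-sulphur clusters. Slc25a28 (mitoferrin 2), the form of most tissues, read 8.56, 8.39, 8.44 and 8.30 in sham and 7.71, 7.62, 7.59, 7.43 and 7.34 in banding, without overlap, and fell 1.84-fold (-0.88 ± 0.09, adjusted p = 0.000207). Slc25a37 (mitoferrin 1), the form of red cell precursors, read 8.89, 8.60, 9.19 and 9.08 in sham and 7.91, 8.11, 8.16, 8.96 and 8.17 in banding. It was the lower member whose groups overlapped, through banding replicate 4, and it passed by a small margin (-0.68 ± 0.23, adjusted p = 0.0497). That call was lost without banding replicate 1, 2, 3 or 5 or sham replicate 1, 3 or 4, and without banding replicate 4 the fall was 0.85 (adjusted p = 0.00363, range over its alternatives 0.00363 to 0.195). Alas2, the erythroid enzyme that starts haem synthesis, had its highest banding value on the same array, at 9.45 against 7.66 to 8.38 on the others, and 9.25 to 10.10 in sham. The mean of 4 erythroid markers was 5.20 on that array, 4.21 to 4.87 on the other banding arrays and 4.95 to 5.21 in sham. Of these markers 2 were dim in both groups, so the mean varied mainly through Alas2 and Slc4a1. Slc4a1 read 6.71 on banding replicate 4 but also 6.49 on replicate 5, and 4.43 to 4.71 on replicates 1 to 3. The part of erythroid transcripts in the Slc25a37 values was not tested. Among 7 genes of mitochondrial iron use, 6 fell and 0 rose, with a median of -0.97, where 32.2% of all genes above the dim level were lower. Nfs1, the desulphurase of cluster assembly, fell 2.28-fold (adjusted p = 4.7e-05), Fech, the last enzyme of haem synthesis, 1.96-fold (adjusted p = 5.35e-05), and the transporter Abcb10 2.19-fold.

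The remaining members include carriers whose substrates are less settled. Slc25a34 read 11.15, 10.82, 11.18 and 10.57 in sham and 9.61, 9.07, 9.54, 8.52 and 8.09 in banding, a fall of 1.96 ± 0.35 (3.90-fold, adjusted p = 0.00282). Slc25a35, its closest relative by name, fell 1.87-fold (-0.90 ± 0.11, adjusted p = 0.0005), from 6.19 to 6.58 in sham to 5.28 to 5.67 in banding. Slc25a46, an outer membrane member that takes part in mitochondrial fission and fusion, fell 1.86-fold (-0.90 ± 0.07, adjusted p = 9.16e-05), and its second probe set by 0.84 ± 0.09. Slc25a45 read 6.08, 5.75, 6.19 and 6.07 in sham and 6.43, 6.83, 6.73, 6.68 and 6.39 in banding, and rose 1.51-fold (0.59 ± 0.13, adjusted p = 0.00672). Slc25a53 was dim in sham and barely above the dim level in banding (mean 4.25), and did not pass (adjusted p = 0.151).

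Slc25a47 is a carrier known mainly from liver. It read 6.21, 5.55, 5.41 and 8.73 on sham replicates 1 to 4, and between 3.97 and 4.04, under the dim level, on all banding arrays. Albumin (Alb) read 12.73, 12.32, 11.45 and 14.85 on the same sham arrays, so both genes were highest on replicate 4 and lowest on replicate 3. Among banding arrays Alb was highest on replicate 5, at 8.51 against 2.34 to 3.31, while Slc25a47 was dim on all of them. The fall of Slc25a47 was at least 4.84-fold (-2.48 ± 0.66, adjusted p = 0.0191), and at least 2.88-fold without sham replicate 4 (adjusted p = 0.000631, range over its alternatives 0.000631 to 0.0899). The part of liver RNA in this fall was not tested. The only Slc25a47 probe set is of the kind that can cross-hybridise, so the fall could not be checked without such probe sets. Without sham replicate 4 the counts over the whole family were 21 lower and 5 higher, of which 21 and 4 were among the 22 and 4.

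**Figure D3:**
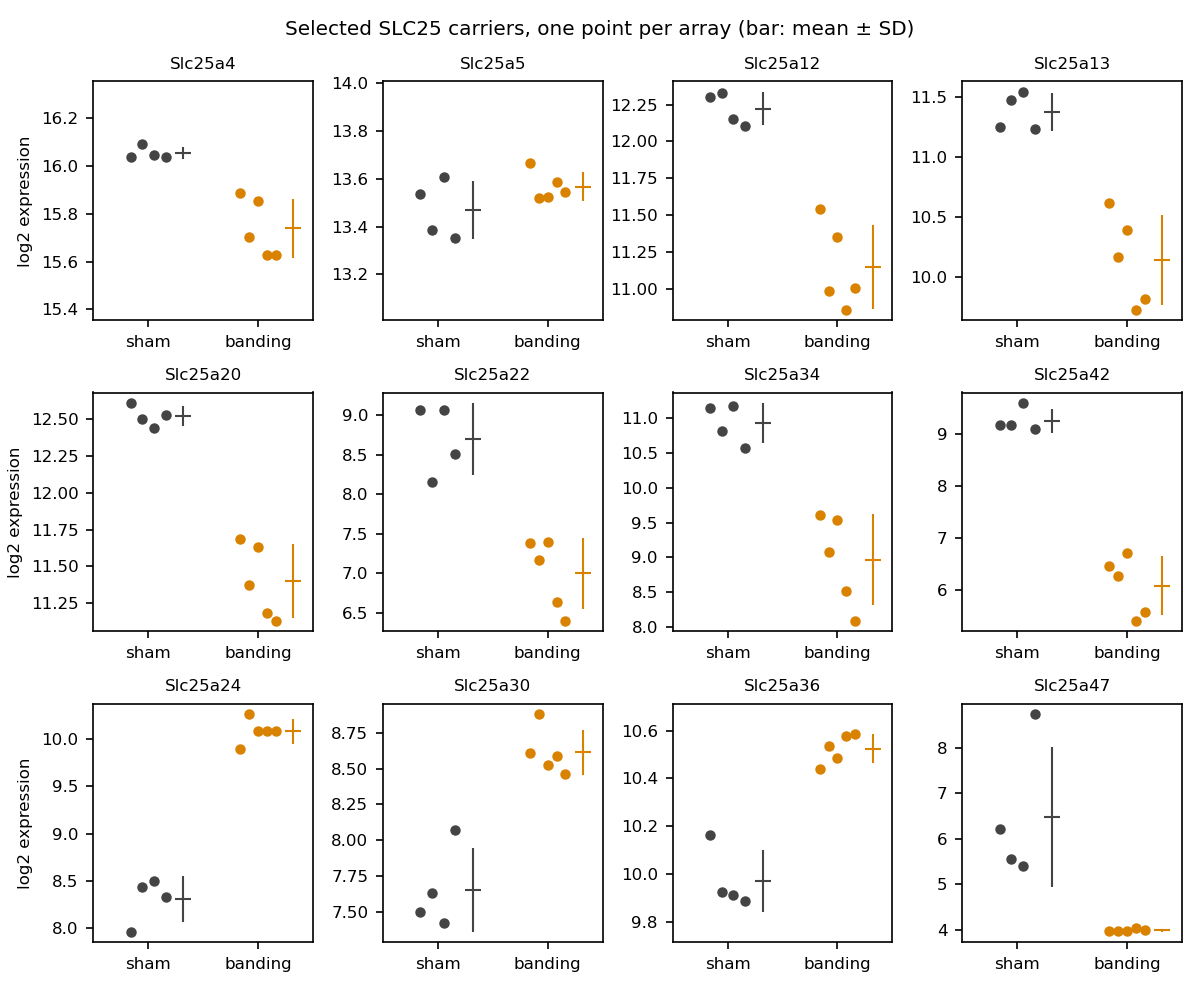
Log2 expression of 12 carriers on each array, sham in grey (4 arrays) and banding in orange (5 arrays), with the group mean and SD beside the points and a separate vertical scale for each gene. Groups do not overlap except for Slc25a5, and sham replicate 4 stands at 8.73 for Slc25a47.

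Carriers of related substrate were then compared with each other, by taking the difference of 2 genes on each array and comparing it between groups. Of 13 pairs, 12 could be tested, since Slc25a18 was dim. An exact two-sided permutation test over all 126 splits of the arrays was passed by 8, with p-values adjusted over the 12 pairs. The pairs were chosen with earlier results of these data known, so the count of 8 and these p-values are not independent support. The smallest p that 5 against 4 arrays can give is 0.00794, which becomes 0.0159 after adjustment, and 6 pairs reached it. Slc25a4 fell by 0.41 more than Slc25a5 (exact permutation, adjusted p = 0.0159), with the difference between them at 2.44 to 2.70 in sham and 2.04 to 2.33 in banding. Without cross-hybridising probe sets that contrast was -0.15 and did not pass (exact permutation, adjusted p = 0.107, range over its alternatives 0.0136 to 0.188). Slc25a24 rose against both Slc25a23, by 1.77, and Slc25a25, by 1.74. Slc25a25 lay close to the dim level and hardly varied, so the second contrast mostly restates the rise of Slc25a24. Slc25a33 changed by -1.86 relative to Slc25a36, Slc25a16 by 3.26 relative to Slc25a42, and Slc25a39 by -0.48 relative to Slc25a40, whose values hardly varied. Slc25a30 rose against Slc25a14 by 0.71 (exact permutation, adjusted p = 0.0272). It no longer passed when sham replicate 1 or 3 was left out, nor with the mean of all probe sets (-0.13 for Slc25a14 minus Slc25a30). Slc25a10 fell by 0.38 less than Slc25a11 (exact permutation, adjusted p = 0.0357). That call was lost with any of banding replicates 2 to 5 or sham replicates 1 to 3 left out. The contrast nevertheless stayed between 0.32 and 0.60 over its alternatives. Leaving out an array also makes the exact test coarser, so a lost call does not by itself show a smaller contrast. The aspartate/glutamate carriers Slc25a12 and Slc25a13 did not pass against each other (0.16, exact permutation, adjusted p = 0.265), nor did the mitoferrins (-0.20, adjusted p = 0.676 by exact permutation) or Slc25a20 and Slc25a29 (-0.05, adjusted p = 0.889 by exact permutation). With the mean of all probe sets, Slc25a20 fell by 0.59 more than Slc25a29 (exact permutation, adjusted p = 0.0136, range over its alternatives 0.0136 to 1). A p that misses the threshold does not show that 2 carriers changed alike.

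**Figure D4:**
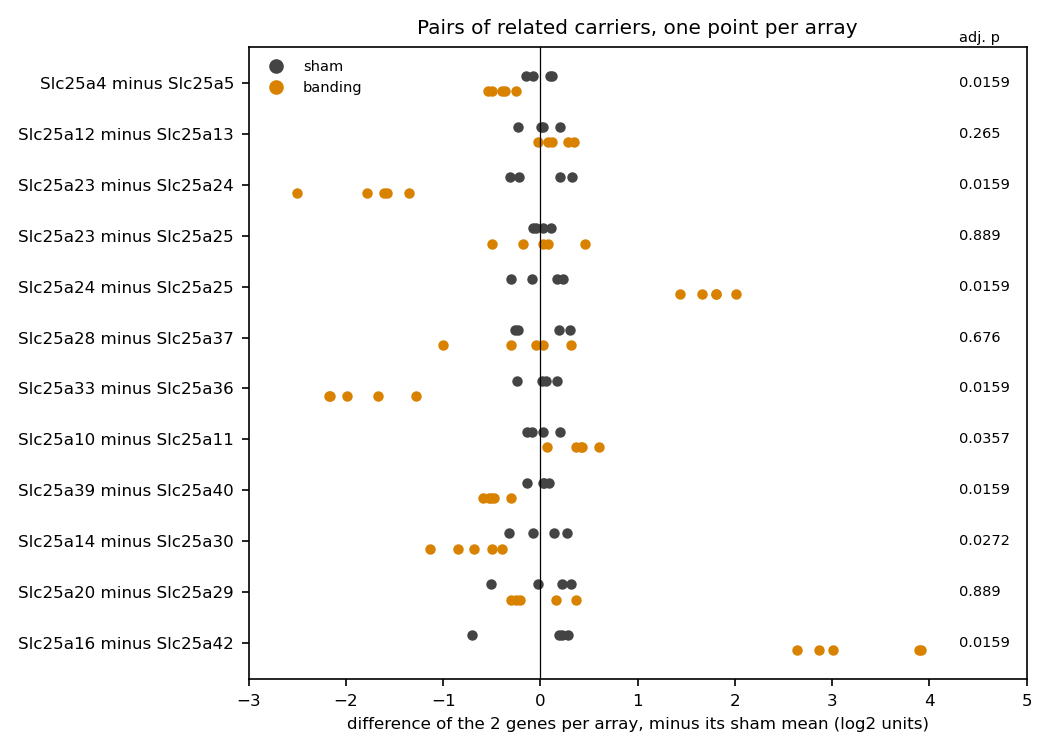
For each of 12 pairs of related carriers, the difference of the 2 genes on every array minus its sham mean, in log2 units, with sham in grey and banding in orange. The adjusted p of the exact permutation test stands at the right, and the pairs with Slc25a24, Slc25a36 and Slc25a42 show the widest gaps between the groups.

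The lower carriers also shared an order among the banded ventricles. Averaged over the 22 lower members, log2 expression was 9.30, 9.0, 9.19, 8.87 and 8.83 on banding replicates 1 to 5 and 10.18, 10.13, 10.17 and 10.29 on sham replicates 1 to 4. Of the 22 members, 16 had their highest banding value on replicate 1 and 4 on replicate 3 and 2 on replicate 4, while 9 had their lowest on replicate 4 and 9 on replicate 5. The spread between banding arrays was larger than that between sham arrays in 18 of the 22. These counts were not made over all genes, and all members were read on the same arrays. They are therefore not a result about the family alone. The order was not particular to the carriers. The mean of 90 genes of the respiratory chain and its assembly followed it, at 12.72, 12.46, 12.58, 12.45 and 12.45. That of 12 genes of carrier import was also highest on replicate 1 but lowest on replicate 2 (10.36, 10.08, 10.19, 10.23 and 10.25). The mean of the cardiomyocyte markers followed the same order as the lower carriers, at 15.18, 15.02, 15.12, 14.96 and 14.96, over a range of about 0.2 log2 units. The mean of 3 atrial markers was also highest on banding replicate 1, at 13.01 against 9.07 to 11.46 on the other banding arrays and 8.66 to 11.31 in sham. The part of either marker set in the spread of the carriers was not tested. The carriers that rose did not show replicate 1 highest, and Slc25a24, Slc25a30 and Slc25a45 had their highest banding value on replicate 2.

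**Figure D5:**
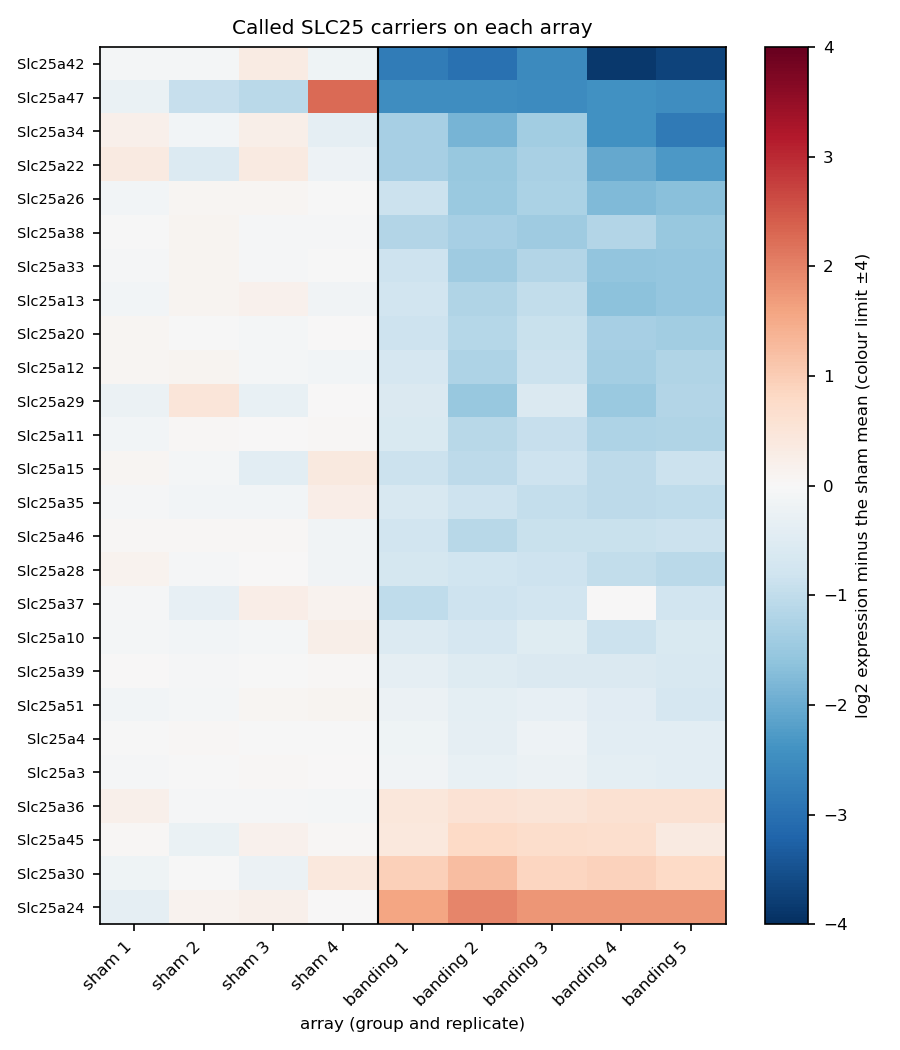
Log2 expression minus the sham mean of the 26 carriers that passed, on each of the 9 arrays, ordered by their difference, with blue below and red above the sham mean. The blue is palest on banding replicate 1 for most rows and deepest on replicates 4 and 5, Slc25a37 is near its sham mean on banding replicate 4, and Slc25a47 is high on sham replicate 4.

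Genes around the family moved as follows. Relatives that carry other symbols were compared first, with 4 measured. Ucp3, the uncoupling protein of muscle, read 9.17, 7.02, 8.83 and 7.24 in sham and 4.42, 4.34, 5.20, 3.28 and 3.20 in banding, a fall of at least 14.6-fold (-3.97 ± 0.62, adjusted p = 0.00162). Mtch2 and Mtch1, outer membrane proteins of carrier-like fold, went apart, with Mtch2 1.78-fold lower (adjusted p = 2.11e-05) and Mtch1 1.69-fold higher (adjusted p = 7.76e-05). Ucp1, the uncoupling protein of brown fat, was dim in both groups. In the machinery that imports carriers, 9 of 12 genes fell and 0 rose, with a median of -0.52. Among the chaperones of the intermembrane space, Timm8a1 fell 1.64-fold, Timm8b 1.76-fold and Timm13 1.42-fold, and Timm29, of the inner membrane translocase, 1.59-fold. For scale, 77 of 90 genes of the respiratory chain and its assembly, taken by symbol, were lower and 1 was higher, with a median of -0.58. Lower calls thus made up 50% of the carriers and 20.0% of all genes. Above the dim level in a group, 22 of 38 carriers and 32.2% of all genes were lower. The difference between the carriers and the respiratory chain was not tested.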

How the data were processed

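The authors deposited 1 log2 expression value per probe set and array, already normalised. RMA and GCRMA are both listed, per the submitters' processing notes, with no version and no statement of which was applied. That the scale is log2 was inferred from its span of 2.198 to 16.43, and array medians lay between 3.23 and 3.31. Of 45101 probe sets, 64 controls, 9160 without a gene and 932 with several genes were left out, which leaves 34945 for 18193 genes. A gene took its brightest probe set, whatever the group.

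The groups were fitted with lmFit and eBayes (limma 3.58.1, R 4.3.3), two-sided and with no covariate, and p-values were adjusted by Benjamini-Hochberg over all genes (threshold 0.05). Where 1 group was dim, the fold was taken against the dim level. The fit was tested on simulated data. Pairs of carriers were compared by exact permutation. The members, pairs, gene lists and motifs were chosen with earlier results of these data known. From each pathway list up to 4 genes of smallest p are named, and Alb, Alas2 and Slc4a1 are named because a result touches them. Alternatives covered the choice of probe set, a filter on dim genes, normalisation, flooring, moderated variances, the replicate number and each array left out. The number of arrays limits the precision. Promoters came from RefSeq (GRCm38.p6). Plots used matplotlib 3.10.9.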

Additional observations from a re-analysis of the deposited data

Results flagged for a closer look

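In 14 of the 98 groups of values checked, 1 array stood apart by a gap that was large for the range of its group. Chance would give about 4.9 if the groups were independent and free of ties. They share genes and arrays, and some hold identical values, so that figure is only a rough guide. The gap to the nearest array, as a share of the whole range of the group, is given for each. A large share can come with a small gap, as for Slc25a40.

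Among the sham arrays, replicate 4 stood apart for Slc25a10 (7.34 against 7.01 to 7.04, share 0.895), for Slc25a46 (11.57, below 11.74 to 11.75, share 0.921) and for Slc25a25 (4.34 against a single value of 4.19 on the others, share 1). Replicate 2 stood above the others for Slc25a33 (share 0.852), Slc25a38 (share 0.853) and Slc25a4 (16.09 against 16.04 to 16.05, share 0.855). Replicate 1 was low for Slc25a11 (12.87 against 12.99 to 13.00, share 0.865) and high for Slc25a36 (10.17 against 9.89 to 9.92, share 0.865). Replicate 3 was high for Slc25a42 (9.59 against 9.09 to 9.17, share 0.843) and low for the difference between Slc25a16 and Slc25a42 (share 0.904).

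Among the banding arrays, replicate 2 was high for Slc25a1 (7.21 against 6.78 to 6.87, share 0.794) and Slc25a53 (4.71 against 4.10 to 4.15, share 0.917). Replicate 4 was high for Slc25a37 (8.96 against 7.91 to 8.17, share 0.757). Replicate 3 was low for Slc25a40, at 8.33 against the identical 8.35 on the others (share 1).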

How the results depend on the processing

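Lower members numbered 22 as reported and 20 to 22 under the alternatives without the block (21 to 22 with 1 array left out), and each of these was among the 22. Higher members numbered 4 as reported, 4 to 5 with 1 array left out, and 7 when dim genes were filtered out first. That filter leaves fewer genes to adjust over and also changes the moderated variances behind each p. Pairs numbered 8, and 6 to 8 with 1 array left out. For same-numbered arrays, deviations from the group means correlated at -0.029 to 0.036 over 11013 genes, and 1 of 4 correlated best with its own number. These values do not decide whether the replicate numbers pair the samples. With the replicate number as a block, 16 members were lower, 4 were higher (3 of them the same) and 0 pairs passed, because 4 pairs of arrays cannot give an exact p under 0.125, even before adjustment. The lower calls of Slc25a3, Slc25a10, Slc25a29, Slc25a37, Slc25a47 and Slc25a51 and the higher call of Slc25a45 were lost with the block. Leaving out sham replicate 4 and banding replicate 5, which hold the most liver transcript in their groups, was chosen after seeing the data, and gave 20 lower and 5 higher.

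Direction turned in members and pairs that did not pass as reported. With the mean of all probe sets Slc25a27 was -0.054, and without cross-hybridising probe sets Slc25a5 was -0.16. With quantile normalisation Slc25a17 was -0.031, Slc25a23 -0.081, Slc25a25 -0.081 and Slc25a27 -0.098, and with median centring -0.014, -0.038, -0.015 and -0.0034. With the block Slc25a23 was -0.11. Quantile normalisation also turned the contrasts of Slc25a23 with Slc25a25 (0.00087) and of Slc25a20 with Slc25a29 (0.034). With arrays left out, Slc25a16 ran from -0.033 to 0.16, Slc25a17 from -0.058 to 0.092, Slc25a23 from -0.11 to 0.14, Slc25a25 from -0.0078 to 0.076 and Slc25a27 from -0.053 to 0.18. The contrast of Slc25a23 with Slc25a25 ran from -0.14 to 0.095 and that of Slc25a20 with Slc25a29 from -0.22 to 0.058. The cause of these turns was not tested.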
